A study of Mus musculus with 14 samples.

Results

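The data compare hair follicle stem cells of mice at postnatal day 20 (P20) with those at postnatal day 18 (P18), in the libraries whose titles carry the label Irx5KO. These are 4 libraries at P20 and 3 at P18, 7 of the 14 libraries of the series. The other 7, labelled WT, are used only where stated. Irx5KO is read as knockout of Irx5, but the labels give neither the allele, the strain, the sex nor the animal behind a library. Cells were sorted from trypsin-digested back skin as positive for CD34 and a marker written CD45f and negative for Ly-6A/E, and their total RNA was sequenced by single-end reads. No treatment is named for any group, and libraries are called below by age and by the number in their title.

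Hair follicle stem cells sit in the bulge, a niche of the outer root sheath, and stay mostly quiescent while the follicle rests. At the start of a growth phase, first the hair germ and then the bulge divide. BMP and FGF18 signals hold the bulge at rest, and Wnt and Hedgehog signals accompany activation. In the first hair cycles of mouse back skin this switch from rest to growth falls around the ages sampled here. IRX5 is an Iroquois homeobox transcription factor, and the title of the series links it to DNA damage repair and to activation of these cells.

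Summed counts per library were 36671532, 52863003 and 70083873 at P18 and 39056352, 35871129, 13618367 and 18123209 in P20 libraries 1 to 4. No 2 replicates looked like 1 library deposited again, since chi-square values of their gene counts ran from 68.2 to 455 per degree of freedom. Whether replicates came from separate animals is not stated, and a p-value here covers the variation among these libraries only, which could be technical. The deposited tables carry a 6-digit code that differs between P20 libraries 1 and 2 and P20 libraries 3 and 4, and between P18 library 1 and P18 libraries 2 and 3. No code occurs at both ages, so age and code cannot be told apart. The Y-linked gene Ddx3y was at 0.567, 109 and 134 CPM (counts scaled to library size after TMM normalisation) in P18 libraries 1 to 3 and at 0.377, 68.1, 58.8 and 67.2 CPM in P20 libraries 1 to 4, so library 1 of each age was low.

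Markers of the sorted cells were high in every library. The bulge surface marker Cd34 was at 345, 450.0 and 259.8 CPM in the P18 libraries and at 389, 292, 336 and 349 CPM in the P20 libraries. The keratin gene Krt15, a bulge marker, was at 6403, 6551 and 5441 CPM and 9600.0, 9390.0, 9358 and 10720.0 CPM, and the basal keratin gene Krt5 ranged from 4562 to 9057 CPM. The gated-out marker Ly6a stayed between 0 and 2.06 CPM, and the pan-leukocyte gene Ptprc between 0.0552 and 9.25 CPM. The melanosome gene Mlana, the muscle gene Acta1 and the globin gene Hbb-bs were at most 1.74 CPM. Transcripts typical of other cells were also present. The 12 melanocyte markers, which include the melanocyte regulator gene Mitf at 171, 174 and 107 CPM at P18 and 218, 167, 64.5 and 68.7 CPM at P20, summed to 142 to 220.3 CPM at P18, 192 to 238 CPM in P20 libraries 1 and 2 and 76.5 to 81.7 CPM in P20 libraries 3 and 4. The suprabasal keratin gene Krt10 was at 274, 435 and 361 CPM at P18 and 3055, 596, 499.9 and 443 CPM at P20, highest in P20 library 1. The collagen gene Col1a1 was at 84.6, 45.0 and 45.5 CPM at P18 and 71.7, 13.7, 246 and 233 CPM at P20, highest in P20 libraries 3 and 4. Another collagen gene, Col3a1, was at 0.482, 4.01 and 2.20 CPM and 27.9, 4.75, 6.80 and 0.110 CPM, highest in P20 library 1.

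The targeted gene Irx5 (ENSMUSG00000031737.11) lies on chromosome 8, 92357625 to 92376286, plus strand, in mm10, and its transcripts were present in all 7 libraries. At P18 Irx5 was at 47.7, 70.1 and 72.6 CPM. At P20 it was at 30.2 and 18.2 CPM in libraries 1 and 2, below every P18 library, and at 180.4 and 170.1 CPM in libraries 3 and 4, above every P18 library. Per transcript length it was at 22.8, 35.9, 35.6, 13.4, 8.87, 81.7 and 64.0 TPM in the same order of 7 libraries. The group means were 63.5 ± 13.7 CPM (SD, n = 3) at P18 and 99.7 ± 87.5 CPM (SD, n = 4) at P20, and did not differ beyond the spread (p = 0.571 in a two-sided exact permutation test, which cannot go below 0.0571 with these group sizes). In the libraries labelled WT, scaled separately from those labelled Irx5KO, Irx5 was at 92.9, 97.6 and 129 CPM at P18 and 114, 99.5, 37.9 and 42.7 CPM at P20. P20 libraries 3 and 4 held more Irx5 than any library labelled WT, against their label. The sources used here do not give the part of Irx5 that the allele removes, and a count summed over the gene does not show whether an exon is missing. Every direction drawn from P20 libraries 3 and 4 rests on their labels.

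Because P20 libraries 1 and 2 carry another code than P20 libraries 3 and 4, the age comparison was made for all 4 together and for each pair. With all 4, edgeR called 200 of 11479 genes, 1.74%, at an adjusted p under 0.05. Of these, 72 (0.627% of genes tested) were higher and 128 (1.12%) lower at P20. P20 libraries 1 and 2 against P18 gave 1204 genes (10.5%), 631 higher and 573 lower. P20 libraries 3 and 4 against P18 gave 3531 genes (30.8%), 1551 higher (43.9%) and 1980 lower, while by limma-voom with quality weights 54.5% of 2742 genes were higher. P20 libraries 3 and 4 against P20 libraries 1 and 2 gave 3045 genes (26.5%), 1265 higher and 1780 lower. The first 3 comparisons share the P18 libraries.

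**Figure D1:**
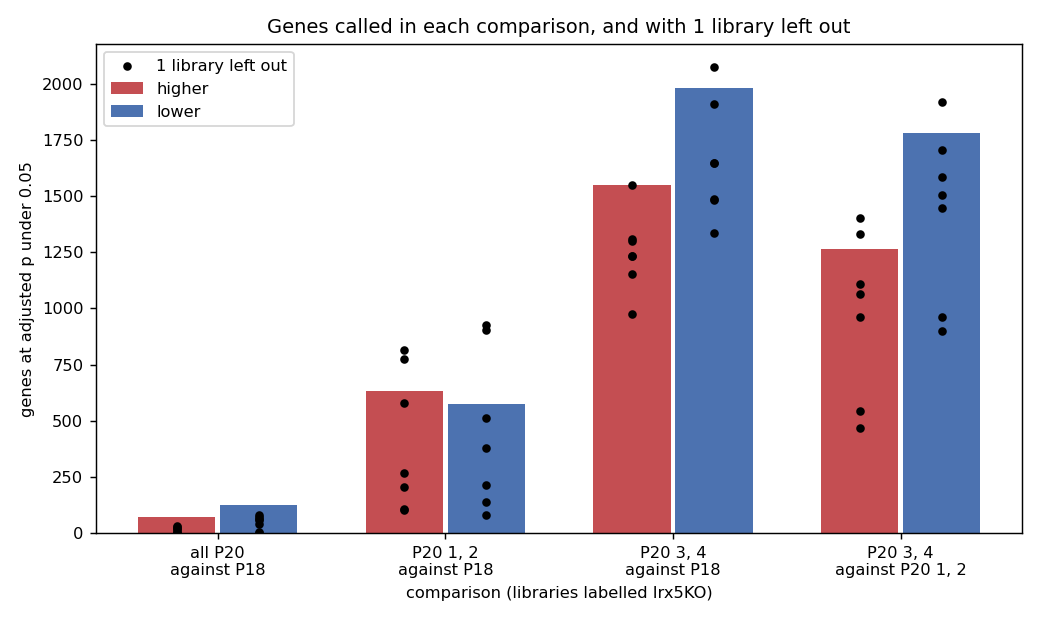
Genes at an adjusted p under 0.05 (vertical axis) in each comparison of libraries labelled Irx5KO (horizontal axis), higher in red and lower in blue, with dots for the same counts when 1 library is left out. The 200 genes called with all P20 libraries are few beside the 3531 called with P20 libraries 3 and 4, and the dots of the first comparison reach 0.

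In all 4 P20 libraries, genes of several roles stood at a fraction of their P18 level. Nppc (chromosome 1, 86666291 to 86670571, minus strand, mm10), which encodes C-type natriuretic peptide, was at 118, 154 and 224 CPM at P18 and at 16.2, 18.7, 12.9 and 17.8 CPM at P20. The highest P20 library was thus far below the lowest P18 library, and the log2 difference was -3.33 ± 0.27 (SE, adjusted p = 0.00527). Slc25a30, a mitochondrial carrier gene, was at 151, 281 and 288 CPM and then 26.0, 17.8, 22.5 and 20.1 CPM, a log2 difference of -3.47 ± 0.28 (SE, adjusted p = 0.00527). Angptl4, which encodes an inhibitor of lipoprotein lipase, was at 345, 273 and 564 CPM and then 29.3, 48.1, 35.1 and 56.1 CPM, with a log2 difference of -3.22 ± 0.34 (SE, adjusted p = 0.0118). For all 3 genes no P20 library of either pair reached the lowest P18 library. The largest changes were named only among genes without such overlap, so this separation was a condition of choice. The chitinase-like gene Chil1 fell to between 0 and 0.631 CPM from 16.1, 16.0 and 24.3 CPM. It met the level needed for testing, 5 CPM in 3 libraries, through the P18 libraries alone. Tcim, Serpinb1a, Sytl2 and Tmem173, the gene of the innate immune adaptor STING, fell too, with log2 differences of -3.76 ± 0.65, -3.67 ± 0.52, -3.29 ± 0.55 and -3.09 ± 0.45.

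Regulators of cell death and stress were among the genes that fell. Of 25 p53 target genes tested, 4 fell and 1 rose, against 1.12% and 0.627% of all genes. Pmaip1, which encodes the pro-apoptotic protein NOXA, was at 150.4, 320.5 and 473 CPM at P18 and 57.3, 46.6, 38.9 and 51.1 CPM at P20, a log2 difference of -2.70 ± 0.37 (SE, adjusted p = 0.0189). Trp53inp1, an autophagy and stress gene, was at 326, 413 and 300.0 CPM and 102, 122, 79.0 and 111 CPM, with no overlap between ages. The kinase gene Plk2 (-1.54 ± 0.24, adjusted p = 0.0265) and the death receptor gene Fas (-1.77 ± 0.33, adjusted p = 0.0441) fell as well. The member that rose was Sesn2, a regulator of the growth kinase complex mTORC1, at 19.9, 8.93 and 17.5 CPM and then 55.4, 77.6, 54.4 and 60.7 CPM (2.01 ± 0.33, adjusted p = 0.0291). The median log2 difference over the 25 genes was -0.01, beside 0.03 over all genes tested.

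A secreted growth factor gene and a clock gene also fell at P20. Csf1, a macrophage growth factor gene, was at 30.9, 27.3 and 43.1 CPM and then 7.79, 5.53, 8.45 and 3.37 CPM (-2.43 ± 0.38, adjusted p = 0.0278). Of 17 NF-kB and cytokine genes tested it was the 1 that passed, while 16 of 17 had a negative difference and the median was -0.87. The cytokine gene Il6 was at 19.9, 55.3 and 40.0 CPM at P18 and 2.35, 2.01, 0.618 and 0 CPM at P20, without overlap, and did not pass (-4.90 ± 1.05, adjusted p = 0.0612). Bhlhe40, a transcriptional repressor of the circadian clock, fell (-1.85 ± 0.29, adjusted p = 0.0263). It was at 569, 291 and 459.5 CPM at P18 and 129, 89.5, 111 and 157 CPM at P20.

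Transcripts encoded by the mitochondrial genome took a lower share of the counts in every P20 library. The share was 1.77%, 1.66% and 1.48% in P18 libraries 1 to 3 and 0.456%, 0.566%, 0.797% and 0.594% in P20 libraries 1 to 4. Of the 13 genes, 10 fell, 0 rose and 3 did not pass, with a median of -1.48. The cytochrome oxidase gene mt-Co1 was at 5762, 4543 and 4448 CPM and then 1548, 1843, 2025 and 1652 CPM (-1.48 ± 0.21, adjusted p = 0.0225). The cytochrome b gene mt-Cytb and the NADH dehydrogenase genes mt-Nd1 and mt-Nd6 had differences of -1.53 ± 0.23, -1.45 ± 0.24 and -1.81 ± 0.18, and the small ATP synthase gene mt-Atp8 of -1.83 ± 0.24. The 3 that did not pass, mt-Co2, mt-Co3 and mt-Atp6, varied more, as in mt-Atp6 at 72.05, 750.2 and 927 CPM at P18 and 177, 327, 801 and 35.6 CPM at P20. mt-Nd3 had 11.6, 32.8 and 39.0 CPM at P18 and 0 counts in all 4 P20 libraries, at least 1026-fold lower against a floor of 3 counts over the group. In the P18 libraries labelled WT mt-Nd3 was at 0, 0.864 and 58.8 CPM, so a value of 0 occurred at P18 too. The labels do not state how RNA was selected, and the part of library preparation in these values was not tested. Of 39 nuclear genes of oxidative phosphorylation 0 passed in either direction, near the 1.74% of all genes, with 35 positive and a median of 0.56.

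Some genes of ribosome assembly rose over the 4 P20 libraries. Of 32 ribosome biogenesis and Myc target genes tested, 9 rose and 0 fell, against 0.627% and 1.12% of all genes, with a median of 0.87. Mycn, a Myc family transcription factor gene, was at 1.90, 0.693 and 2.31 CPM at P18, 10.6 and 11.9 CPM in P20 libraries 1 and 2 and 48.5 and 30.9 CPM in libraries 3 and 4. Its log2 difference was 3.96 ± 0.75 (SE, adjusted p = 0.0468), and libraries 3 and 4 were the highest. Ncl, which encodes the nucleolar protein nucleolin, was at 951, 751 and 962 CPM and then 2492, 2704, 1601 and 2022 CPM (1.31 ± 0.26, adjusted p = 0.049). The box C/D ribonucleoprotein genes Nop56 and Fbl, the small subunit assembly gene Nob1, the polymerase I and III subunit gene Polr1c and the nucleophosmin gene Npm1 had differences of 1.62 ± 0.31, 1.25 ± 0.23, 1.56 ± 0.28, 1.44 ± 0.28 and 1.01 ± 0.20. The remaining 2 were Nop16 and Ddx21. Of 46 cytosolic ribosomal protein genes 1 rose, Rps19 (1.65 ± 0.27, adjusted p = 0.0299), and 38 were positive. The chaperone gene Hsp90ab1 was the 1 of 17 heat shock and chaperone genes that rose, from 1198, 1423 and 1480.0 CPM to 3763, 3826, 2872 and 3450.0 CPM.

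Other genes that rose over the 4 libraries serve matrix, lipid, sugar and RNA metabolism. Fmod, which encodes the collagen-binding proteoglycan fibromodulin, was at 3.88, 3.69 and 3.02 CPM at P18 and 44.3, 15.7, 62.5 and 105 CPM at P20 (4.01 ± 0.64, adjusted p = 0.0284). Dscaml1, a cell adhesion gene, was at 0.936, 0.506 and 0.434 CPM and 6.83, 8.50, 63.1 and 63.4 CPM, and the 2 highest values were again libraries 3 and 4. Fdps, of cholesterol synthesis, and Pfkl, of glycolysis, rose by 2.85 ± 0.45 and 2.24 ± 0.29 in log2. The splicing factor gene Cwc22 was at 29.3, 32.4 and 26.5 CPM and 139.7, 119, 218 and 147 CPM (2.40 ± 0.26, adjusted p = 0.0132). The nuclear transport gene Rangap1 and the chromatin gene Hmgn5 had differences of 2.33 ± 0.35 and 2.36 ± 0.35. The granular layer gene Flg was at 17.1, 27.3 and 10.9 CPM and 279.6, 200.4, 133 and 77.2 CPM, and Nccrp1 at 1.99, 1.27 and 1.14 CPM and 64.8, 18.3, 14.3 and 10.5 CPM. Both were highest in P20 library 1, where the epidermal gene Krt10 was highest too, and the part of epidermal cells in these rises was not tested. Fmod, Dscaml1, Nccrp1 and Mycn were under 5 CPM in every P18 library. They met the level needed for testing, 5 CPM in 3 libraries, through P20 libraries alone.

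Replication genes and bulge markers are set beside the 0.627% of all genes that rose and the 1.12% that fell over all 4 libraries. Of 42 G1/S and DNA replication genes, 2 rose with age in all 4 libraries, the licensing factor gene Cdt1 (20.8, 9.76 and 14.9 CPM, then 54.1, 52.6, 67.7 and 77.5 CPM, 2.05 ± 0.32, adjusted p = 0.0263) and the ribonucleotide reductase gene Rrm2 (1.83 ± 0.32, adjusted p = 0.0353). Of 20 bulge stem cell markers 0 passed (median -0.05), and of 21 quiescence factors 0 (median -0.06), counts near those shares. Lgr5, a stem cell receptor gene, was at 373, 434 and 188 CPM and 276, 263, 268 and 187 CPM, Nfatc1, a quiescence factor of the bulge, at 670.5, 366 and 644 CPM and 523, 519, 531 and 643 CPM, and the bulge transcription factor gene Sox9 at 1459, 1874 and 1627 CPM and 1325, 1061, 1284 and 1334 CPM. Krt15 was higher in each P20 library than in each P18 library, but did not pass (0.67 ± 0.21, adjusted p = 0.135).

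The number of calls over all 4 P20 libraries depended on each P18 library. Without P18 library 3 no gene passed, without library 2, 6 did, and without library 1, 45. Leaving out 1 P20 library left 77 to 101. Without P20 libraries 3 and 4, 1703 genes passed, and without P20 libraries 1 and 2, 2933. Of the 40 genes named here that passed, none kept its call when each library was left out in turn. By DESeq2 1212 genes passed, 54% of them higher at P20, and by limma-voom with quality weights 1075, 47.9% of them higher, against 36% by edgeR.

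**Figure D2:**
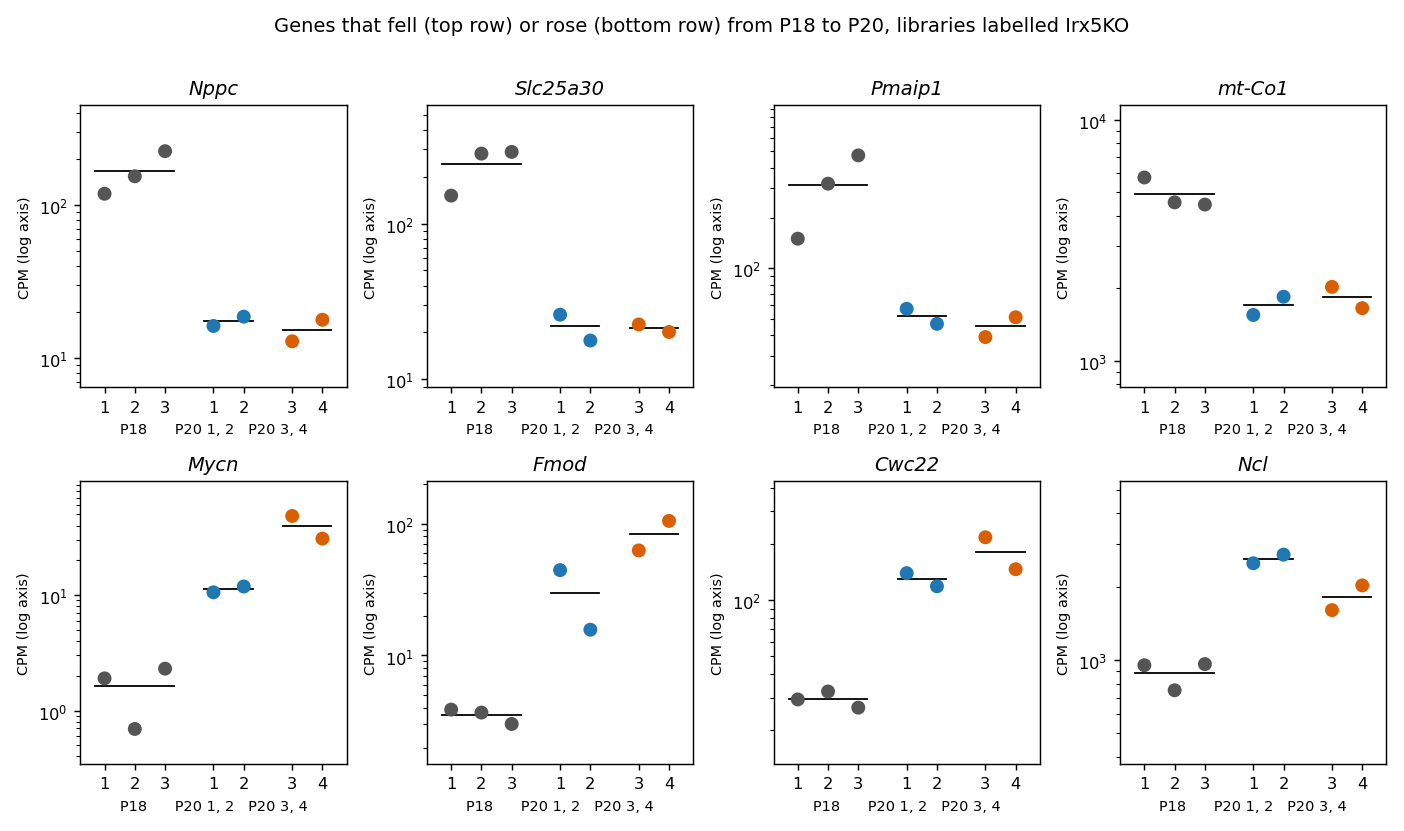
CPM on a log axis for 4 genes that fell (top row) and 4 that rose (bottom row) from P18 to P20 in libraries labelled Irx5KO. Each dot is a library (grey P18, blue P20 1 and 2, orange P20 3 and 4), each line a mean. In all 8 panels the P20 dots lie on 1 side of the P18 dots, and Mycn, Fmod and Cwc22 are highest in P20 libraries 3 and 4. Genes named for the largest changes were taken only where the ages did not overlap, so for those the separation was a condition of choice.

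P20 libraries 1 and 2 against P18 had fewer transcripts of linker and core histones and more of ribosome biogenesis, chaperone and epidermal differentiation genes. Of 23 replication-dependent histone genes tested, 11 fell and 0 rose, against 4.99% and 5.50% of all genes, with a median of -2.46. The linker histone genes Hist1h1d and Hist1h1e were at 286, 459 and 384 CPM and 510.5, 736 and 825 CPM in the P18 libraries, and at 8.20 and 8.68 CPM and 32.2 and 28.6 CPM here. Their log2 differences were -5.48 ± 0.42 (SE, adjusted p = 0.00172) and -4.51 ± 0.32 (SE, adjusted p = 0.00125). P20 libraries 3 and 4, at 245 and 529.6 CPM and 515 and 751 CPM, overlapped the P18 libraries. The proliferation marker gene Mki67 was at 13.98, 22.5 and 26.4 CPM at P18 and 18.6 and 14.5 CPM in P20 libraries 1 and 2 (-0.34 ± 0.27, adjusted p = 0.478). Hist1h1c and Hist1h2bc fell too (-4.01 ± 0.45 and -4.78 ± 0.78). The main transcripts of such histone genes lack a poly(A) tail, and the part of RNA selection in these values was not tested.

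Inhibitors of cell division and of growth signals moved in both directions in P20 libraries 1 and 2. Of 21 quiescence factors, 2 rose and 4 fell, against 5.50% and 4.99% of all genes. Cdkn1c, which encodes the cyclin-dependent kinase inhibitor p57, rose from 18.9, 19.4 and 13.8 CPM to 38.4 and 48.7 CPM (1.33 ± 0.29, adjusted p = 0.0219). Cdkn1b, the gene of the related inhibitor p27, fell from 154, 166 and 176 CPM to 66.8 and 80.7 CPM (-1.16 ± 0.26, adjusted p = 0.0243). The Wnt antagonist gene Sfrp1 was at 482, 519 and 525 CPM and then 193 and 136 CPM (-1.63 ± 0.21, adjusted p = 0.00497), and Lrig1, which encodes an inhibitor of ErbB receptors, fell too (-1.43 ± 0.25, adjusted p = 0.01). The bulge gene Angptl7 was at 382, 212 and 177 CPM and then 493 and 1320.0 CPM (1.82 ± 0.46, adjusted p = 0.0444). The BMP antagonist gene Nog (1.63 ± 0.42, adjusted p = 0.0396) and the growth regulator gene Myc (1.45 ± 0.24, adjusted p = 0.00896) rose. Myc was at 473, 292 and 402 CPM at P18 and 1127 and 1000.0 CPM here.

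Ribosome biogenesis and protein folding genes rose in P20 libraries 1 and 2. Of the 32 ribosome biogenesis and Myc target genes, 17 rose and 1 fell. Of 17 heat shock and chaperone genes, 5 rose and 0 fell, with Hspa8 at 1131, 572 and 861 CPM and then 3152 and 3157 CPM (1.88 ± 0.27, adjusted p = 0.00605). Hsp90aa1 rose by 1.41 ± 0.21 in log2, and the endoplasmic reticulum chaperone gene Dnajb9 by 1.91 ± 0.31. Of 13 mitochondrially encoded genes 10 fell. Of 36 G2/M and mitosis genes 0 rose and 2 fell, near the 4.99% of all genes that fell, Ckap2l and Top2a, the latter from 12.2, 17.0 and 17.6 CPM to 9.85 and 6.19 CPM (-0.96 ± 0.26, adjusted p = 0.0446). Of 42 G1/S and DNA replication genes 5 rose and 3 fell, with a median of 0.09. Among the 3, the replicative helicase gene Mcm4 fell from 60.8, 65.8 and 80.0 CPM to 29.2 and 23.8 CPM (-1.38 ± 0.21, adjusted p = 0.00669).

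Transcription factor, cytokine and matrix genes were among those that fell, where 4.99% of all genes fell and 5.50% rose. Irx5 fell (-1.39 ± 0.28, adjusted p = 0.0164), as did its family member Irx4, from 76.3, 50.4 and 91.9 CPM to 27.1 and 22.7 CPM (-1.55 ± 0.28, adjusted p = 0.0116), and the hair lineage factor gene Gata3 (-1.33 ± 0.24). Of 17 NF-kB and cytokine genes 6 fell, among them Il6 (-4.14 ± 0.82) and the chemokine genes Cxcl1 (-2.40 ± 0.42) and Ccl2 (-2.42 ± 0.41). Of 24 basement membrane and matrix genes 4 fell, Col4a5 (-1.39 ± 0.26), Thbs1 (-1.56 ± 0.35), Sparc (-1.55 ± 0.22) and Tnc. Mfap2, a microfibril gene, was at 24.1, 22.6 and 23.9 CPM and then 1.10 and 0.270 CPM (-5.09 ± 0.65, adjusted p = 0.00461). In the Hedgehog pathway 2 of 12 genes rose, the effector gene Gli2 (0.94 ± 0.20, adjusted p = 0.0224) and Gpr161, which encodes a negative regulator of the pathway (1.67 ± 0.35, adjusted p = 0.021). The Hedgehog target gene Gli1 was at 50.3, 30.8 and 35.3 CPM and 40.8 and 55.8 CPM and did not pass.

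Epidermal differentiation genes rose in these 2 libraries, most in library 1. Of 19 suprabasal and granular epidermis genes 9 rose and 0 fell, against 5.50% and 4.99% of all genes, with a median of 2.08. The granular layer gene Flg2 was at 74.6, 146 and 31.9 CPM at P18 and 2730.0 and 933 CPM here (4.45 ± 0.75, adjusted p = 0.0175), and Krt10 rose too (2.35 ± 0.59, adjusted p = 0.0477). Serpina12, Ereg, which encodes the growth factor epiregulin, Serpinb7, and the cornification genes Cnfn and Sprr1b rose by 4.94 ± 0.68, 4.25 ± 0.52, 3.84 ± 0.66, 3.74 ± 0.65 and 3.50 ± 0.80 in log2. In each of these 7 genes P20 library 1 was the highest of all 7 libraries. The summed level of the 22 list members was 1539 to 2267 CPM at P18, 3714 to 13540 CPM in P20 libraries 1 and 2 and 2157 to 2549 CPM in P20 libraries 3 and 4. Whether these transcripts came from sorted stem cells or from other epidermal cells was not tested, and in bulk samples fewer cells of a type and less RNA per cell cannot be told apart. Krt6a, a companion layer and inner bulge keratin gene, rose from 682, 620.1 and 575 CPM to 1838 and 1426 CPM (1.38 ± 0.36, adjusted p = 0.0438).

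Without P20 library 1, 241 genes passed in this comparison, without library 2, 187, without P18 library 3, 418, and without P18 library 2, 646. Between 35 and 37 of the 38 genes named here that passed still had a value when 1 library was left out. Cnfn and Serpinb7, for example, fell under the expression filter without P20 library 1, 2 or 3. Of the 38, 13 kept their call in each fit that still tested them, among them Nccrp1, Ereg, Flg, Sfrp1, Hspa8, Hist1h1c, Hist1h1d and Hist1h1e. Irx5 lost it without P20 library 2 (-1.07, adjusted p = 0.132) and without P18 library 3 (-1.30, adjusted p = 0.0541), and Krt10 lost it without each library other than P20 library 2, with 0.75 (adjusted p = 0.221) without P20 library 1.

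P20 libraries 3 and 4 against P18 were marked by transcripts of dividing cells. Of 36 G2/M and mitosis genes tested 34 rose and 0 fell, against 13.5% and 17.2% of all genes, with a median of 3.44. Mki67 (chromosome 7, 135689784 to 135716361, minus strand, mm10) was at 1250.0 and 1418 CPM here and at 13.98, 22.5 and 26.4 CPM at P18 (5.99 ± 0.31, adjusted p = 3.08e-05). Top2a, which untangles DNA, was at 707 and 634 CPM and 12.2, 17.0 and 17.6 CPM (5.43 ± 0.27, adjusted p = 3.08e-05). The kinetochore genes Cenpf and Cenpe, the spindle gene Tpx2, the cytokinesis gene Racgap1 and Foxm1, a transcription factor of mitotic genes, rose by 5.87 ± 0.41, 5.29 ± 0.53, 5.23 ± 0.49, 5.22 ± 0.63 and 5.62 ± 0.41 in log2. A gene had to reach 5 CPM in 3 libraries to be tested, which removed 28 of the 64 list members with counts. Of these 28, 27 were higher in both libraries than in the other 5, among them the mitotic cyclin gene Ccnb1 at 68.5 and 48.1 CPM, against 1.05, 3.88 and 2.23 CPM at P18 and 1.39 and 2.97 CPM in P20 libraries 1 and 2. In all, 62 of the 64 were. Among all genes tested the share was 19.6%, and no such share was taken over genes too low to be tested. The 250 bases before the RefSeq start of 4 of these genes are shown because the genes moved together in these 2 libraries. They are the 4 members with the smallest p that hold a cell cycle homology region (CHR), a motif known from late cell cycle promoters. Capitals mark the CHR (TTTGAA or TTCGAA) and the CCAAT box (CCAAT), each on either strand (GRCm38.p6).
Top2a, chr11:99024190-99024439, minus strand: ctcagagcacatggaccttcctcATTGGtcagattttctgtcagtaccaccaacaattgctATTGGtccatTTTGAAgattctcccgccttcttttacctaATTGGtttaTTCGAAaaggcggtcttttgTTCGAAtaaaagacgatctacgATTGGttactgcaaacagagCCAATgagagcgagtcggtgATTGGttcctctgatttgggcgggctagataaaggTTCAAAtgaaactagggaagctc
Mki67, chr7:135716380-135716629, minus strand: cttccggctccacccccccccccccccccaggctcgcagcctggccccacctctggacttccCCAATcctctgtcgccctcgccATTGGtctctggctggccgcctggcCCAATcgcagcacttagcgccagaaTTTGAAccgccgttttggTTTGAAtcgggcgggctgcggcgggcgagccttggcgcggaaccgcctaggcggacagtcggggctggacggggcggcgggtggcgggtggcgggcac
Prc1, chr7:80294226-80294475, plus strand: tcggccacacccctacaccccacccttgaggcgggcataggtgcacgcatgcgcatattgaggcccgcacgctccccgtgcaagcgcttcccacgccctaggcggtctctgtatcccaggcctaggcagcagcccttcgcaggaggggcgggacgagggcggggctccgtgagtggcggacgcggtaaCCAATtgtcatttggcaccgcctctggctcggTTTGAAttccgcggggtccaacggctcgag
Ckap2l, chr2:129297213-129297462, minus strand: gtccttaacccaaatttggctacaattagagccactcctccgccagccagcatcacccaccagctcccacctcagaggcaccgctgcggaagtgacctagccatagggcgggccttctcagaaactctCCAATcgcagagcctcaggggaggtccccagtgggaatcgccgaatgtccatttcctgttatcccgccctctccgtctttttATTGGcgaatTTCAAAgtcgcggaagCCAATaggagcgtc

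The Top2a promoter held 4 CHR and 6 CCAAT matches and that of Mki67 2 and 3. Prc1, of the central spindle, held 1 of each, and Ckap2l, of the mitotic spindle, held 1 CHR and 3 CCAAT matches. Of the 36 G2/M members tested 31 had a promoter entry, and 12 of these (38.7%) held a CHR, against 14.3% of 8683 genes tested and 19.6% of all 27025 genes with an entry. All 12 also held a CCAAT box, a combination found in 5.5% of the genes tested. Among all 1191 genes with an entry that rose in these 2 libraries 16.5% held a CHR, and among 1402 that fell 15.0%. A match describes these letters and is not a binding site.

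DNA replication and histone genes, and some repair genes, rose in the same 2 libraries. Of 42 G1/S and DNA replication genes 29 rose and 1 fell. The helicase genes Mcm3, at 9.07, 7.38 and 6.84 CPM and then 182 and 119.5 CPM (4.28 ± 0.31, adjusted p = 1.41e-04), and Mcm5 (4.15 ± 0.39) rose, as did the methylation maintenance gene Uhrf1 (4.67 ± 0.31) and the G1 cyclin gene Ccnd1 (2.15 ± 0.24). Of 23 histone genes 14 rose and 0 fell. Of 22 homologous recombination genes 6 rose and 1, Mus81, fell. Brca1 was at 3.26, 2.36 and 6.17 CPM at P18, 1.56 and 1.41 CPM in P20 libraries 1 and 2 and 60.8 and 65.3 CPM here (4.00 ± 0.42, adjusted p = 3.70e-04). Its partner Bard1 (2.71 ± 0.47) and the recombination motor gene Rad54l (2.57 ± 0.44) rose with it, and the other 3 were Brip1, Rpa1 and Mcm8. In the Fanconi anaemia pathway 4 of 12 rose, among them Fanca (2.05 ± 0.37, adjusted p = 0.00384). Of 15 checkpoint and damage signalling genes 4 rose, among them H2afx, the gene of the histone variant phosphorylated at breaks (14.3, 11.4 and 16.6 CPM, then 99.5 and 144 CPM), and Topbp1 (1.54 ± 0.19). Of 9 end joining genes Parp1 (1.44 ± 0.19) rose and Dclre1c fell, and of 25 p53 targets 4 rose and 8 fell. The shares that rose were near the 13.5% of all genes in both lists. Trp73, a p53 family gene, was among those that rose (2.37 ± 0.24, adjusted p = 3.07e-04). The part of the cell cycle genes above in the repair genes' values was not tested.

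Hedgehog pathway genes rose in P20 libraries 3 and 4, while lists of hair germ and Notch genes divided. Of 12 Hedgehog pathway genes 6 rose and 0 fell, against 13.5% and 17.2% of all genes. Of 16 hair germ and early growth markers 3 rose and 3 fell, and of 15 Notch pathway genes 2 rose and 2 fell, both near these shares. The receptor and target gene Ptch1 was at 119, 104 and 114 CPM and then 585 and 284 CPM (1.96 ± 0.28, adjusted p = 0.00136), and the target Gli1 at 50.3, 30.8 and 35.3 CPM and then 318 and 251 CPM (2.87 ± 0.26, adjusted p = 2.27e-04). The signal transducer Smo (1.14 ± 0.21) and the effector Gli2 (1.18 ± 0.20) rose as well. The BMP and Wnt modulator gene Sostdc1 was at 54.7, 47.7 and 36.9 CPM and then 682 and 689 CPM (3.88 ± 0.25, adjusted p = 7.58e-05), and Sfrp1 rose (0.96 ± 0.20, adjusted p = 0.007), while the Wnt antagonist gene Dkk1 fell to 0.0687 and 0.166 CPM from 8.03, 7.79 and 6.47 CPM. The Notch target gene Hes1 (1.72 ± 0.27), the bulge transcription factor gene Tbx1 (0.97 ± 0.22), the integrin gene Itgb6 (1.92 ± 0.20), the matrix gene Npnt (2.00 ± 0.28) and the perlecan gene Hspg2 (1.23 ± 0.24) rose. Irx5 rose as well (1.46 ± 0.26, adjusted p = 0.00358).

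Genes linked to rest fell in P20 libraries 3 and 4. Of 21 quiescence factors 8 fell and 2 rose, against 17.2% and 13.5% of all genes, with a median of -0.52. Cdkn1c was at 18.9, 19.4 and 13.8 CPM at P18 and 5.08 and 4.69 CPM here (-1.83 ± 0.32, adjusted p = 0.00309), and Cdkn1a, the gene of the inhibitor p21, at 292, 132 and 202 CPM and 59.8 and 96.1 CPM (-1.42 ± 0.35, adjusted p = 0.0152). Bmp6, a BMP ligand made by the bulge, fell from 43.2, 33.1 and 48.2 CPM to 3.30 and 4.31 CPM (-3.44 ± 0.39, adjusted p = 5.55e-04). Dlk1, a non-canonical Notch ligand gene (-3.05 ± 0.56), Angptl7 (-2.26 ± 0.51) and the matrix genes Postn (-1.68 ± 0.29) and Thbs1 (-2.92 ± 0.37) fell. Fgf18, the gene of a growth factor that holds the bulge at rest, was at 12.7, 14.2 and 4.19 CPM at P18 and 5.01 and 1.71 CPM here and did not pass. The ERK feedback genes Spry1 (-3.11 ± 0.26) and Dusp5 (-2.02 ± 0.34) were among 10 of 23 FGF and ERK response genes that fell. Of 20 bulge markers 3 rose and 6 fell, while Cd34 had a difference of -0.04 ± 0.25.

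Clock and inflammatory genes, and some oxidative stress genes, fell with them, where 17.2% of all genes fell and 13.5% rose. Of 20 circadian clock genes 10 fell and 0 rose, among them Per2 (165, 67.4 and 145 CPM, then 12.9 and 19.0 CPM, -2.98 ± 0.44, adjusted p = 0.00201), Cry1 (-1.08 ± 0.29) and Tef (-1.32 ± 0.32). The labels give no hour of collection. Of 17 NF-kB and cytokine genes 10 fell, with Il6 at -7.04 ± 1.03, Cxcl1 at -5.52 ± 0.52 and Ccl2 at -4.75 ± 0.48. Of 30 immediate early and dissociation response genes 11 fell and 0 rose. Of 17 oxidative stress response genes 7 fell and 1 rose. Of 17 heat shock and chaperone genes 5 rose and 2 fell, the falls near the share of all genes. The metallothionein gene Mt1 was at 1180.0, 691 and 787 CPM and then 103 and 185 CPM, and the heme oxygenase gene Hmox1 at 44.5, 51.6 and 83.5 CPM and 8.72 and 7.56 CPM. Among the largest falls, Elovl7, of fatty acid elongation, Mylk4, Kbtbd11 and Dennd1c were each at 0 to 0.275 CPM in both libraries, and their P18 values ranged from 10.01 to 51.0 CPM. Kbtbd11, with 2 counts in all, was low in P20 libraries 1 and 2 too, at 2.23 and 4.03 CPM. Olfactory and vomeronasal receptor genes also took a lower share of counts in P20 libraries 3 and 4, at 0.152% and 0.115%. Their share was 0.436%, 0.585% and 0.405% in the P18 libraries and 0.528% and 0.611% in P20 libraries 1 and 2. The part of this difference between libraries in the near-zero values was not tested.

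Metabolic genes rose, and sebaceous and upper follicle markers fell, in P20 libraries 3 and 4, where 13.5% of all genes rose and 17.2% fell. Of 39 nuclear oxidative phosphorylation genes 21 rose and 0 fell, with the ATP synthase gene Atp5b at 149, 224 and 215 CPM and then 476 and 537 CPM, while of 13 mitochondrially encoded genes 10 fell. Of 23 cholesterol synthesis genes 11 rose, among them Acat2 (2.98 ± 0.29). Of 23 unfolded protein and integrated stress response genes 14 rose and 2 fell, among the former the mitochondrial folate gene Mthfd2 (3.16 ± 0.53). The glycolytic gene Eno1 rose from 28.0, 36.5 and 37.7 CPM to 171 and 279 CPM. Of 10 sebaceous gland markers 5 fell, with Scd3 among them (-4.86 ± 0.53, adjusted p = 4.58e-04), and of 14 upper follicle and interfollicular markers 6 fell and 1 rose, with Cst6 among the former (-4.32 ± 0.47, adjusted p = 6.41e-04). Summed over the list, leukocyte markers were at 516 to 838 CPM at P18, 610 to 917 CPM in P20 libraries 1 and 2 and 304 to 323 CPM in libraries 3 and 4. Endothelial markers were at 38.8 to 62.2, 40.2 to 48.1 and 5.35 to 7.69 CPM in the same order, and dermal fibroblast and papilla markers at 139 to 182, 86.5 to 223 and 318 to 346 CPM. In libraries 3 and 4 Col1a1 alone was at 246 and 233 CPM. Of the 20 fibroblast and papilla markers, 1 was higher in both libraries than in the other 5, and 5 were lower. The part of these cell types in the differences above was not tested. Between 54 and 59 of the 59 genes named here that passed still had a value when 1 library was left out. Brca1, for one, fell under the expression filter without P18 library 3, P20 library 3 or P20 library 4. Of the 59, 55 kept their call in each fit that still tested them. The exceptions were Cry1 without P18 library 3 or P20 library 4, Cdkn1a without P20 library 3, and Angptl7 and Tef without P20 library 4.

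**Figure D3:**
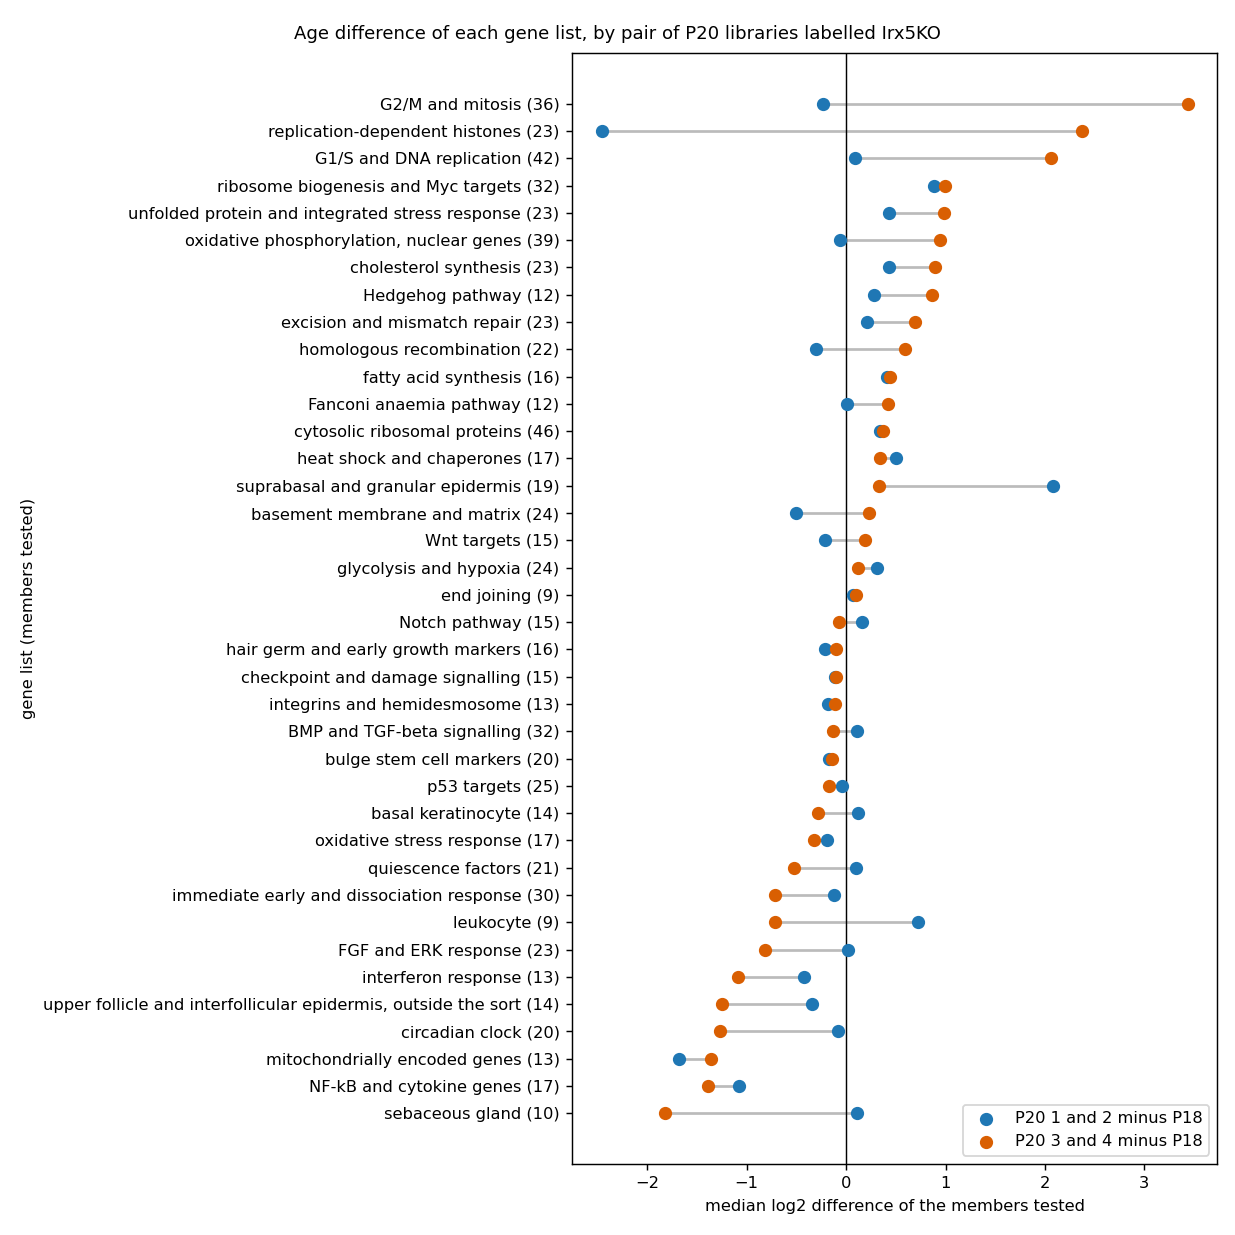
Median log2 difference from P18 (horizontal axis) of the tested members of each of 38 gene lists with at least 9 members tested (vertical axis), for P20 libraries 1 and 2 (blue) and P20 libraries 3 and 4 (orange), labelled Irx5KO. Both sets of medians share the P18 libraries. Histone genes lie at -2.46 and 2.37 and G2/M genes at -0.23 and 3.44, while ribosome biogenesis lies at 0.88 and 0.99 and mitochondrially encoded genes at -1.68 and -1.36.

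The P20 pairs were also compared directly, without P18 in the difference. In P20 libraries 3 and 4 minus 1 and 2, 33 of 36 G2/M genes rose and 0 fell, against 11.0% and 15.5% of all genes, and 21 of 23 histone genes rose. Mki67 (6.33 ± 0.37, adjusted p = 8.29e-05) and Brca1 (5.40 ± 0.53, adjusted p = 3.87e-04) rose. Irx5 (2.86 ± 0.31, adjusted p = 6.11e-04), Sostdc1 (4.23 ± 0.30, adjusted p = 2.09e-04) and Sfrp1 (2.59 ± 0.24, adjusted p = 3.15e-04) were higher too. Gli1 and Ptch1 differed by 2.56 ± 0.29 and 2.91 ± 0.33, and the linker histone genes Hist1h1d and Hist1h1e by 5.52 ± 0.43 and 4.38 ± 0.32.

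On the lower side stood Cdkn1c (-3.16 ± 0.35, adjusted p = 6.36e-04), Cdkn1a (-2.38 ± 0.38), Angptl7 (-4.08 ± 0.57), Dlk1 (-3.49 ± 0.60), Myc (-1.89 ± 0.28) and Krt6a (-3.18 ± 0.44). Fgf18 was at 26.6 and 13.7 CPM in libraries 1 and 2 and 5.01 and 1.71 CPM in libraries 3 and 4 (-2.59 ± 0.74, adjusted p = 0.0313). This call was lost without P20 library 1, 2 or 4. Mlph, which encodes the melanosome transport protein melanophilin, was at 44.9 and 55.6 CPM and then 0.137 and 0.331 CPM, and the adaptor gene Shc4 at 47.4 and 64.8 CPM and then 0 and 1.93 CPM. Thy1, on the list of leukocyte markers, and the endothelial gene Pecam1 were lower as well (-2.68 ± 0.22 and -2.14 ± 0.47), Pecam1 not without P20 library 2. Of 32 ribosome biogenesis genes 3 were higher and 5 lower, near the 11.0% and 15.5% of all genes. Of 13 mitochondrially encoded genes 0 passed in either direction. Of 19 suprabasal and granular genes 6 were lower and 0 higher. The P20 libraries labelled WT divide by the same codes. There the order was the reverse, without overlap, for Irx5, Mki67, Brca1, Sostdc1, Sfrp1, Gli1, Ptch1 and Hist1h1d. It was also the reverse for Cdkn1c, Cdkn1a, Angptl7, Dlk1, Krt6a and Fgf18. Mlph, Shc4 and Thy1 kept the same order, and for Myc, Pecam1 and Hist1h1e the WT pairs overlapped. In WT libraries 1 to 4 Irx5 was at 114, 99.5, 37.9 and 42.7 CPM, Brca1 at 29.1, 21.7, 0.722 and 0.276 CPM, Cdkn1c at 4.02, 6.55, 33.6 and 48.6 CPM, Hist1h1d at 193, 124, 37.3 and 46.0 CPM and Gli1 at 186, 227, 70.2 and 91.7 CPM. For these 5 genes the WT pair with the code of P20 libraries 3 and 4 thus lay on the opposite side of its partner pair.

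**Figure D4:**
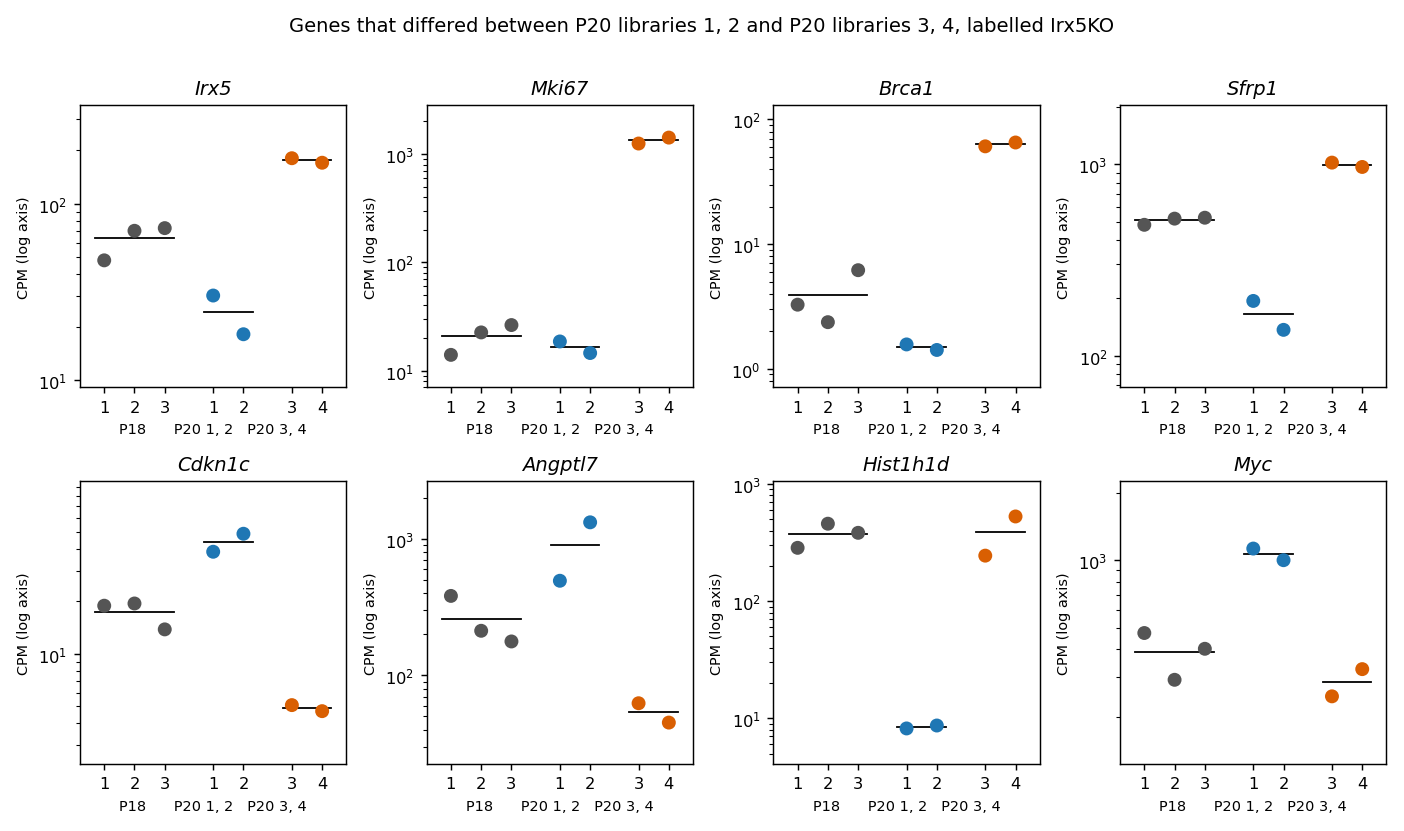
CPM on a log axis for 8 genes that differed between the P20 pairs of libraries labelled Irx5KO, as dots per library (grey P18, blue P20 1 and 2, orange P20 3 and 4) with lines for means. Irx5, Mki67, Brca1, Sfrp1 and Hist1h1d are higher in P20 libraries 3 and 4 than in 1 and 2, and Cdkn1c, Angptl7 and Myc lower.

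Whether the age difference depended on the genotype label was tested in all 14 libraries with the code as a covariate. With edgeR 0 of 13591 genes (0%) passed, 208 had an unadjusted p under 0.05, and the smallest adjusted p was 0.999. By DESeq2 2 genes passed and by limma-voom 24. Among protein-coding genes, the smallest p-values on the higher side belonged to Coro7, Pycard, Plekhb1 and Ccdc92 (1.06 ± 0.31, 1.13 ± 0.34, 2.69 ± 0.83 and 1.43 ± 0.45, the log2 difference in labelled Irx5KO minus that in labelled WT). On the lower side they belonged to Mbd1, Rnf146, Cavin2 and Arhgef3 (-1.04 ± 0.27, -1.37 ± 0.37, -1.04 ± 0.30 and -1.01 ± 0.29). For Irx5 the difference was 1.01 ± 1.15, for Mki67 2.00 ± 5.80 and for Brca1 1.92 ± 4.84. The model gave a code the same effect in both labels. Mki67 in P20 libraries 1 to 4 was at 18.6, 14.5, 1250 and 1418 CPM in labelled Irx5KO and 454, 242, 12.0 and 4.27 CPM in labelled WT. Such opposite order enters the spread, so this test could hardly call such genes. The 0 calls do not show that the age difference was the same in both labels.

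The 7 libraries labelled WT, fitted by themselves, gave 0 of 13053 genes (0%) for age, with 2484 at an unadjusted p under 0.05. In the libraries labelled Irx5KO the same edgeR test gave 2247 of 11479 genes at an unadjusted p under 0.05. Of the 200 genes called with age in the libraries labelled Irx5KO, 197 were tested there. Of these, 194 (98.5%) had the same sign, against 73.7% of 11354 genes tested in both. In 120 of the 197 (60.9%) the WT ages did not overlap in the same direction, while 19.3% of all genes tested there did not overlap in either. These libraries carry the same codes as those labelled Irx5KO. mt-Co1 was at 5249, 4351 and 4708 CPM at P18 and 1310.0, 1505, 1880.0 and 1979 CPM at P20 in the libraries labelled WT. Slc25a30 was at 125, 47.5 and 181 CPM and 15.4, 21.3, 45.6 and 21.0 CPM, and Ncl at 674, 392 and 815 CPM and 2056, 1947, 1694 and 1323 CPM, again without overlap between ages. Nppc was at 87.8, 41.6 and 66.0 CPM and 21.7, 7.94, 25.7 and 26.1 CPM, with P18 levels below those labelled Irx5KO, which were scaled separately. Its age difference in labelled Irx5KO minus that in labelled WT was -1.37 ± 0.58 (edgeR, adjusted p = 0.999). Trp53inp1, at 248.8, 112 and 316 CPM and 198, 69.0, 337 and 84.5 CPM, and Fmod, at 12.7, 14.1 and 15.9 CPM and 3.42, 23.3, 15.3 and 92.3 CPM, overlapped between ages in the libraries labelled WT. Mki67 there was at 35.7, 32.5 and 19.1 CPM at P18 and 454, 242, 12.0 and 4.27 CPM at P20, with P20 libraries 1 and 2 high, the opposite pair from the libraries labelled Irx5KO.

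**Figure D5:**
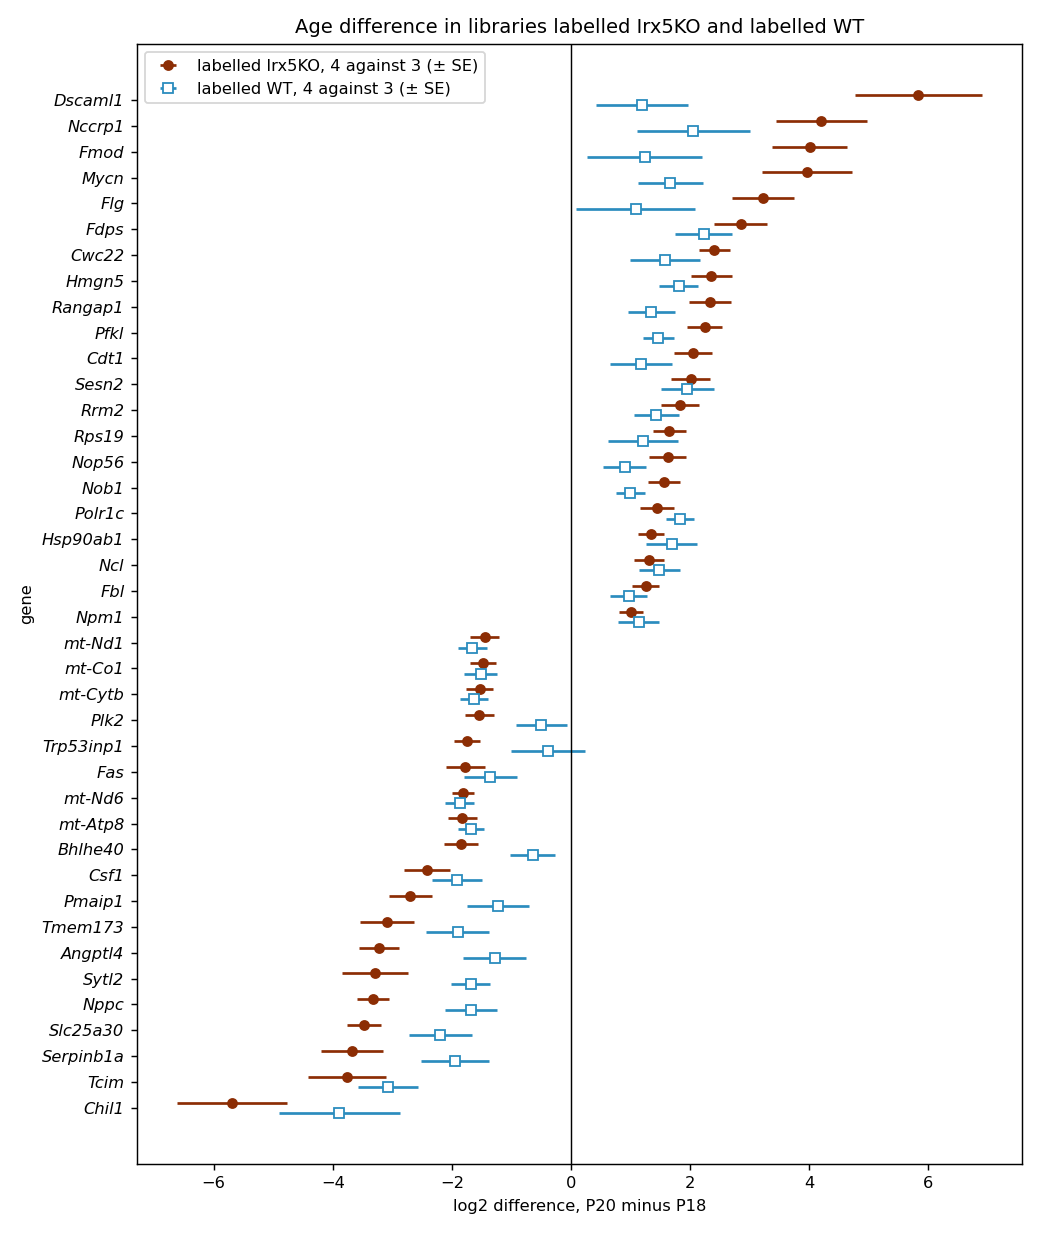
Log2 difference between P20 and P18 (horizontal axis) with its SE for the 40 named genes that passed with age in libraries labelled Irx5KO (filled circles), beside the same difference in libraries labelled WT (open squares). All 40 lie on the same side of 0 in both, and 32 are nearer to 0 in the libraries labelled WT, where none passed. The 40 were chosen by their calls in the libraries labelled Irx5KO, so the 32 do not measure a weaker age difference in those labelled WT.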

How the data were processed

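Bulk RNA from sorted cells was sequenced in 14 libraries, and the 7 labelled Irx5KO were compared by age. The authors pseudoaligned the single-end reads with kallisto 0.46.2, per the labels' protocols, and deposited estimated counts and TPM (length-scaled abundance) per transcript and library. mm10 and DESeq2 are named in the submitters' processing notes, and the transcript annotation is not given in the sources used here.

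Estimated counts were summed to genes with GENCODE vM21, which matched 116816 of 118489 transcripts, and rounded. The 1673 others were left out. Genes with at least 5 CPM in at least 3 of the 7 libraries (11479) were tested with edgeR 4.0.16 in R 4.3.3 (TMM, robust quasi-likelihood test), with Benjamini-Hochberg adjustment and a threshold of 0.05. A gene could meet this expression level through the libraries of 1 age alone. Values after ± are SE of log2 differences unless marked SD. The same test was run for P20 libraries 1 and 2, for P20 libraries 3 and 4 and between them. The genotype comparison used all 14 libraries with the code as covariate. Groups came from titles. The script was tested on simulated data. TPM served for levels of Irx5 per length. Promoter sequences came from RefSeq. Some genes are not reported here.

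Named genes were those fixed in a list of markers, those with the largest changes among the genes called, and members of the gene lists. The largest changes were taken only among genes whose compared groups did not overlap in CPM. Comparisons, members and lists were chosen with earlier results of these data known. Alternatives covered scaling, filters, DESeq2 1.42.0, limma 3.58.1 voom, a replicate block, all 14 libraries in the fit, libraries low in Ddx3y and each library left out. Depth was lowest in P20 libraries 3 and 4, and a count of 0 limits a group only to 3 counts. Counting limits do not cover variation between animals.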

Additional observations from a re-analysis of the deposited data

Results flagged for a closer look

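Among the 4 P20 libraries labelled Irx5KO, 52 values were examined for a library far from the other 3, and chance flags about 1 in 20 such groups. Lgr5 was at 186.6 CPM in P20 library 4, Nfatc1 at 642.6 CPM in P20 library 4 and Nccrp1 at 64.76 CPM in P20 library 1, each beyond Dixon's critical value for the gap to the nearest library as a part of the range. The P20 pairs differed from each other in 3045 genes at an adjusted p under 0.05 with edgeR.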

How the results depend on the processing

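Counts of genes called by edgeR changed with the processing more than directions did. Over all 4 P20 libraries the count of 200 became 425 with no expression filter, 1212 with DESeq2, 1075 with voom and sample quality weights, 439 with all 14 libraries in the fit, 6 without the libraries low in Ddx3y, and 0 to 101 with 1 library left out. Without P20 libraries 3 and 4 it was 1703 and without P20 libraries 1 and 2 it was 2933, both tried after seeing the data. For P20 libraries 1 and 2 the count of 1204 became 1865, 1902, 2429, 727 and 408 under the first 5 settings in that order, and 187 to 1721 with 1 library left out. The share higher was 52.4%, and 40.9% with no filter and 41.8% with all 14 libraries. For P20 libraries 3 and 4 the count of 3531 became 5766 with no filter, 2103 without the libraries low in Ddx3y and 2315 to 3621 with 1 library left out. Between the P20 pairs 3045 became 5306 and 1314 under these, and 1370 to 3321 with 1 left out. The genotype comparison gave 21 genes with no filter, 2 with DESeq2, 24 with voom and 0 to 1 with 1 library left out. Samples share replicate numbers across ages, but residuals of same-numbered samples correlated by 0.062, 0.005 and 0.099, so the numbers were not taken to pair them. With the replicate block 0 genes passed over all 4 P20 libraries, 858 for P20 libraries 1 and 2, of which 709 were among the main 1204, 1708 for P20 libraries 3 and 4 (25.8% higher, against 43.9%) and 1023 between the pairs (24.6% higher, against 41.5%), and the value of Irx5 over all 4 was -0.451. Of the values named in the report, no called one changed sign. Over all settings that still tested them, 0 of 40 named genes kept their call over all 4 P20 libraries. For P20 libraries 1 and 2 it was 8 of 38, for P20 libraries 3 and 4 46 of 59, and between the pairs 16 of 21. Among uncalled ones over all 4 P20 libraries, voom gave Cd34 0.085, Brca1 -1.029 and Irx5 -0.831. Without P20 libraries 3 and 4 Mki67 was -0.386 and Irx5 -1.437. Nfatc1 was 0.143 without the libraries low in Ddx3y and 0.055 without P20 libraries 1 and 2. With 1 library left out Cd34 ranged from -0.229 to 0.158 and Nfatc1 from -0.264 to 0.121. The cause of these changes was not tested. Genes under the filter of a smaller fit have no value there. P20 libraries 3 and 4 had the lowest depth, which limits what can be seen in genes of low counts.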
